A study of Mus musculus with 26 samples.

Results

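The genes described here are 5 chemokines (Cxcl1, Cxcl5, Cxcl12, Ccl2 and Ccl7) and 5 genes of the NF-kB system (Nfkbia, Nfkbiz, Nfkb1, Tnfaip3 and Relb) in stressed NIH3T3 cells. NIH3T3 is a long-established fibroblast line from mouse embryos. The genes were chosen by symbol, and all 10 had a row in the RNA tables (20430 genes) and in the ribosome footprint tables (19941 genes). Each of them passed the filter on low counts in every fit. The study asked, by its title, how transcription that runs past gene ends under stress enters neighbouring genes, and how this relates to retained introns.

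PolyA-selected RNA was sequenced in 16 libraries and ribosome footprints, the mRNA stretches covered by ribosomes, in 10 libraries, with 2 replicates in each of 13 groups. The heat experiment held an untreated control, cells at 44 °C for 2 h and cells at 42 °C for 8 h, and was represented by RNA only among the labelled libraries. The oxidative and osmotic experiment held a shared control, cells given H2O2 for 2 h or 7 h and cells given KCl for 2 h or 7 h, in both RNA and footprints. Doses of H2O2 and KCl were not given in the sources used here. No label says that replicates came from separate cultures, so p-values measure only the spread between these libraries, which may be technical.

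NF-kB is a family of paired transcription factors that IkB proteins hold in the cytoplasm. Cytokine receptors, microbial sensors and several cell stresses activate kinases that mark IkB for destruction, and the freed factors then enter the nucleus. Among the first genes they switch on are their own inhibitors, which end the response, and chemokines, secreted proteins that guide white blood cells. Fibroblasts are a known source of the neutrophil attractants Cxcl1 and Cxcl5, of the monocyte attractants Ccl2 and Ccl7, and of Cxcl12, which is made without stimulation by stromal cells and retains cells bearing its receptor Cxcr4.

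Libraries held 24441877 to 45244430 expected counts for RNA and 1460751 to 5168537 for footprints, where replicate 1 of H2O2 at 2 h was the shallowest and replicate 2 of the same group the deepest. Replicates correlated at r of 0.997 to 0.999 in RNA and 0.956 to 0.978 in footprints (across genes on the log2 CPM scale; genes are not replicates). All 9 fibroblast markers were present, with a summed RNA level of 4179 to 11308 TPM, lowest at 7 h of H2O2 (4179 and 4193 TPM, against 9209 and 9282 TPM in the control). Of 7 macrophage markers, Ptprc, Adgre1, Lyz2 and Tyrobp had a mean below 1 TPM, but the sum reached 101 and 104 TPM at 7 h of H2O2, against 20.6 and 18.4 TPM in the control. Summed epithelial markers stayed at 8.22 to 19.6 TPM and endothelial markers at 0.42 to 3.37 TPM. The part of these shifts in the results was not tested.

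Promoter sequences show which of the genes carry the letters that NF-kB binds just before the transcription start. The RefSeq promoter table (GRCm38.p6, which is the mm10 assembly named in the submitters' processing notes; 250 bases before to 50 after a start) had entries for 4 of the 10 genes. These are the last 150 bases before the start, 5′ to 3′ on the gene's own strand, with matches to the kappa-B consensus in capitals. Cxcl1 (chr5:90891095-90891244, plus strand), Tnfaip3 (chr10:19015411-19015560, minus strand) and Nfkbia (chr12:55492648-55492797, minus strand) are shown because they hold a match, and Cxcl12 (chr6:117168385-117168534, plus strand) because it holds none.
Cxcl1: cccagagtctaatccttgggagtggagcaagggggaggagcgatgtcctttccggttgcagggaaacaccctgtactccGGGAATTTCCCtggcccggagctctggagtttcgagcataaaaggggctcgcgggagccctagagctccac
Tnfaip3: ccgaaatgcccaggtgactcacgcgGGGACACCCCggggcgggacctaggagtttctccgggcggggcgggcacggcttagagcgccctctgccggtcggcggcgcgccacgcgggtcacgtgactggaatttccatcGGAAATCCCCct
Nfkbia: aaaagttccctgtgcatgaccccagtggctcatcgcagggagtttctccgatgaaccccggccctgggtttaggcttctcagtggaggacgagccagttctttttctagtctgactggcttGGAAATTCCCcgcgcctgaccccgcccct
Cxcl12: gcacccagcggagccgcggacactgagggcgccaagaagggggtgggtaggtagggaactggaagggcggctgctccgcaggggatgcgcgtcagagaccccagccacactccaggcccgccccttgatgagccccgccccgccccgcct

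In Cxcl1 a match on each strand overlaps at bases -71 to -61 from the start. In Tnfaip3 a stretch that reads as a match on both strands lies at -125 to -116 and a further match at -12 to -3, while a second listed start of the gene has none. Nfkbia has a match at -29 to -20. Searched on both strands, 8.5% of 32851 promoters hold the kappa-B consensus. The AP-1 motif TGANTCA, held by 7.8% of promoters, occurs in Tnfaip3 at -136 to -130, next to its kappa-B match. The antioxidant response core TGACNNNGC, held by 12.4%, occurs in Nfkbia at -13 to -5. A match is a description of the letters and not evidence of binding, and the absence of a match says only that the letters are not in this window. Cxcl5, Ccl2, Ccl7, Nfkbiz, Nfkb1 and Relb had no entry.

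Levels between genes were compared in TPM, which divides by transcript length. In the unstressed cells of the heat experiment Ccl2 was the most abundant of the 10 mRNAs (244 and 249 TPM), followed by Cxcl5 (225 and 219.9 TPM) and Cxcl12 (199.6 and 216 TPM). Tnfaip3 was the lowest at 10.7 and 10.2 TPM, below Nfkbiz at 19.5 and 18.7 TPM. The control of the H2O2 and KCl experiment had more Ccl2 (481 and 451 TPM) and more Cxcl1 (168 and 156 TPM, against 85.7 and 86.2 TPM). For Nfkbia, Nfkb1 and Relb the controls lay within 5 TPM of each other as means (96.3 against 95.5, 83.4 against 82.5 and 55.1 against 55.0 TPM). The experiments were normalised separately and this difference between controls was not tested, so each stress is compared with its own control.

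RNA levels are given as CPM, counts scaled to a common library depth with TMM normalisation, and changes as log2 fold changes with the standard error (SE) of the fit. A gene is called where edgeR's quasi-likelihood test gave a Benjamini-Hochberg adjusted p under 0.05 over all genes tested. Many genes of these cells moved, so a call alone does not set the 10 genes apart. At 44 °C, 9 of the 10 were called beside 71.0% of all genes tested, with 2 higher (35.4% of all genes) and 7 lower (35.7%). At 42 °C 9 were called beside 63.6%, with 6 higher (31.7%) and 3 lower (31.9%). H2O2 at 2 h gave 9 calls beside 53.9%, with 8 higher (27.3%) and 1 lower (26.5%), and at 7 h 10 beside 70.5%, with 5 higher (39.4%) and 5 lower (31.1%). KCl at 2 h gave 9 calls beside 54.2%, with 8 higher (27.2%) and 1 lower (27.0%), and at 7 h 10 beside 68.8%, with 6 higher (37.2%) and 4 lower (31.6%). The 10 log2 changes had a median of 1.19 after 2 h in H2O2 (all genes -0.00) and 0.90 after 2 h in KCl (all genes 0.00). Their median was -0.53 at 44 °C, 0.19 at 42 °C, 0.03 after 7 h in H2O2 and 0.35 after 7 h in KCl. In bulk RNA, fewer expressing cells and less RNA per cell cannot be told apart.

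**Figure D1:**
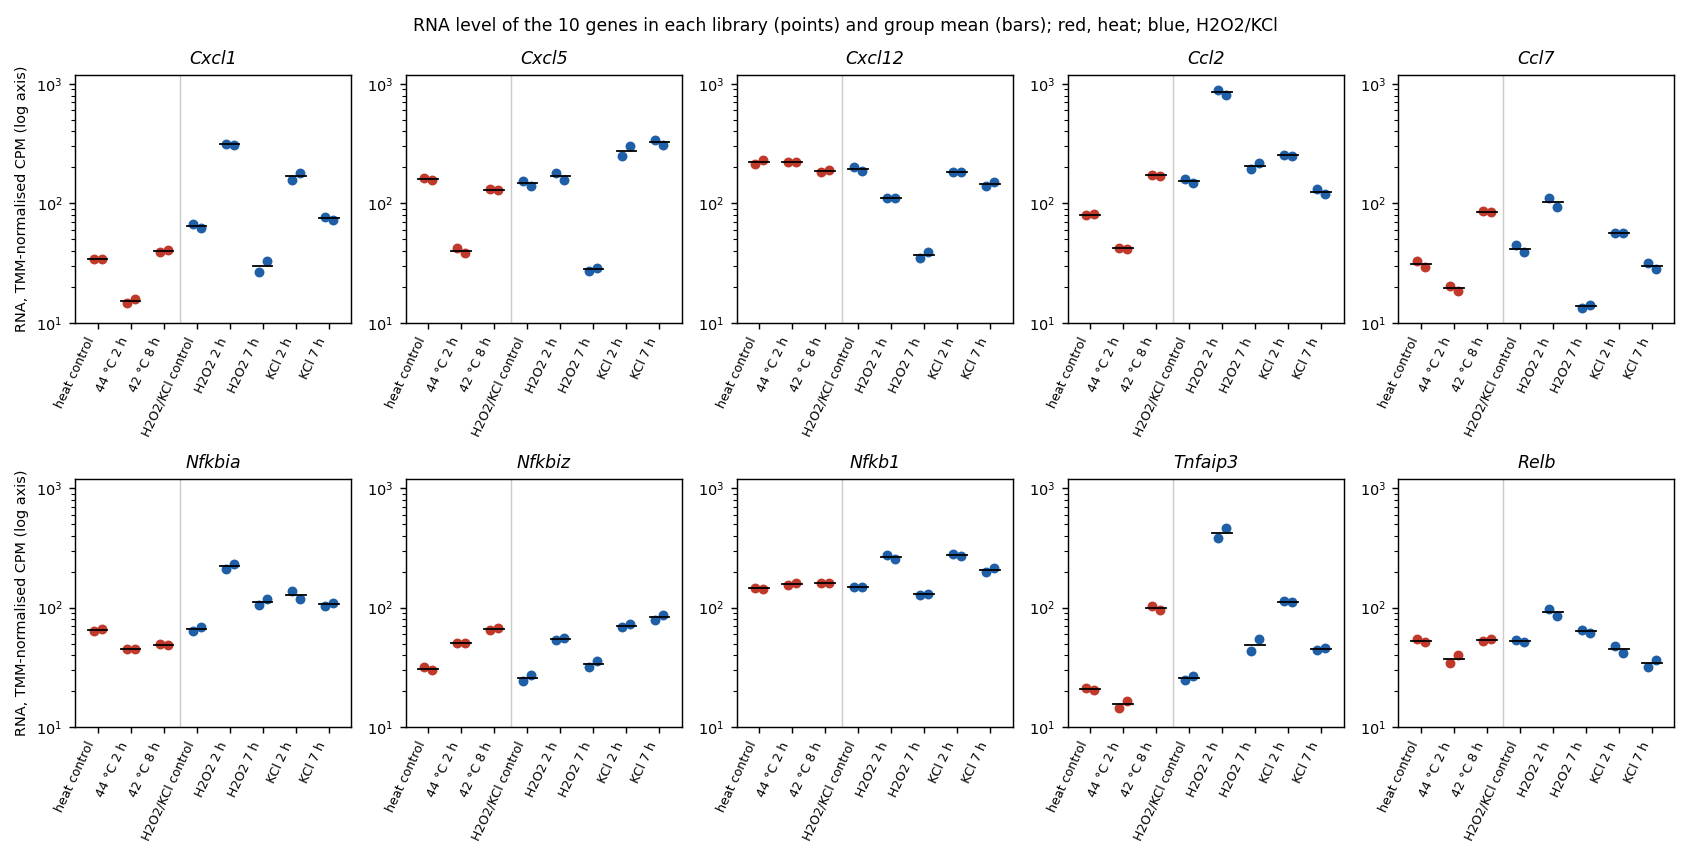
RNA level of each gene on a log axis in CPM, with a point for each library and a bar for the mean of the 2 replicates; red groups belong to heat and blue groups to H2O2 and KCl. The 2 points of a group lie close together, at a ratio of at most 1.26, and the tallest rises are those of Ccl2 and Tnfaip3 at 2 h of H2O2.

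**Figure D2:**
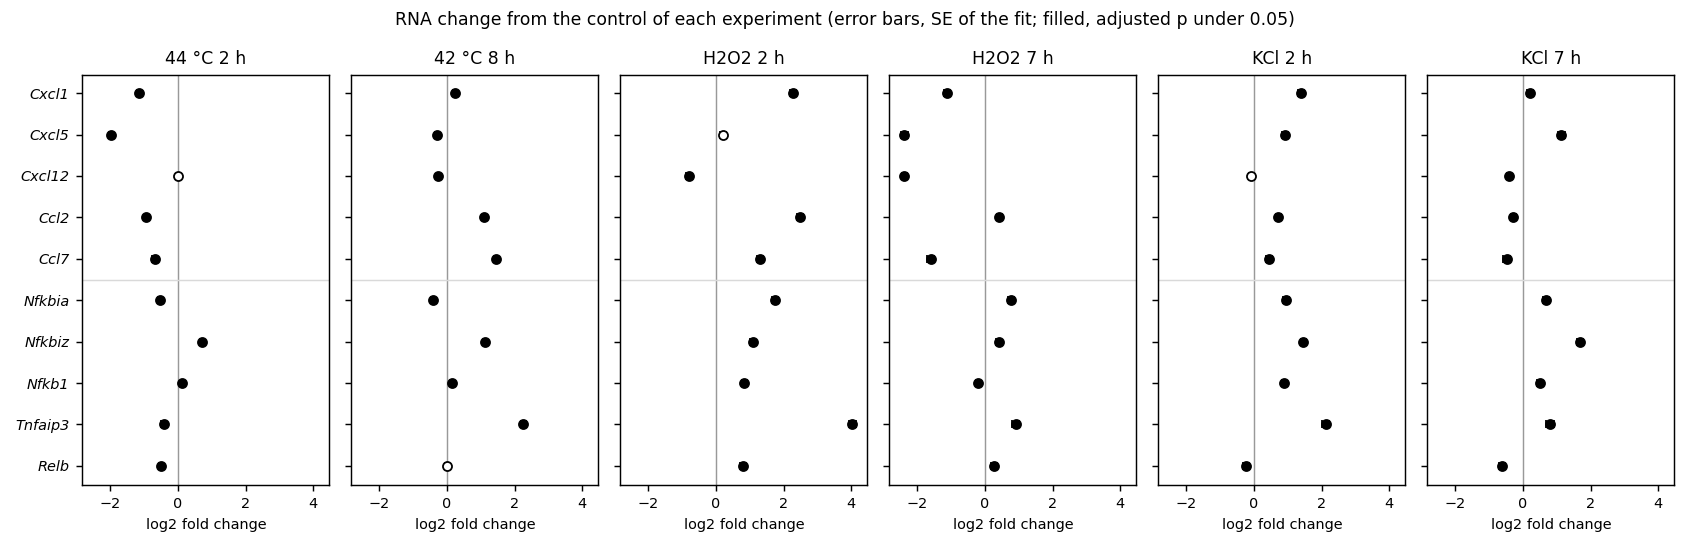
RNA log2 fold change of each gene from the control of its experiment, with SE bars that are mostly narrower than the points; filled points were called at an adjusted p under 0.05. Points of the chemokines Cxcl1, Cxcl5 and Ccl7 lie left of 0 at 44 °C and at 7 h of H2O2, while Nfkbiz lies right of 0 in all 6 panels.

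Cxcl1, a neutrophil attractant that acts through Cxcr2, rose most over its control at 2 h of H2O2 and fell below its control at 44 °C and at 7 h of H2O2. In the H2O2 and KCl experiment the control libraries had 67.2 and 61.8 CPM, H2O2 gave 315 and 311 CPM at 2 h and 26.4 and 33.2 CPM at 7 h, and KCl gave 157 and 179 CPM at 2 h and 76.6 and 73.1 CPM at 7 h. No 2 of these 5 groups overlapped, and the H2O2 libraries crossed from far above the control to below it. Cxcl1 rose 4.85-fold at 2 h of H2O2 (log2 2.28, SE 0.09, adjusted p 1.2e-10) and fell by 1.12 on the log2 scale at 7 h (SE 0.10, adjusted p 1.1e-07). KCl raised it 2.60-fold at 2 h (log2 1.38, SE 0.09). The excess of 0.21 at 7 h of KCl lay at the threshold (adjusted p 0.04996). It was not called without control replicate 1 (0.28) or 2 (0.15) or without KCl replicate 1 (0.18) or 2 (0.25). In the heat experiment the control had 33.9 and 34.1 CPM, 44 °C had 14.8 and 15.7 CPM, and 42 °C had 39.4 and 40.7 CPM. At 44 °C Cxcl1 fell by 1.16 (SE 0.06), to less than any other group of that experiment. The excess at 42 °C, 0.24 (SE 0.06), shrank to 0.05 on log2(TPM + 1) and was not called there.

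Cxcl5, which attracts neutrophils through the same receptor, followed a different course. Control libraries had 155 and 139 CPM, H2O2 gave 180.2 and 157 CPM at 2 h and 27.2 and 28.9 CPM at 7 h, and KCl gave 248 and 305 CPM at 2 h and 337 and 310.1 CPM at 7 h. The KCl libraries were thus above and the 7 h H2O2 libraries far below all others, while at 2 h of H2O2 the libraries lay only just above the control (log2 0.20, SE 0.10, adjusted p 0.094). A call was made there without the low-count filter (0.18) or when only these groups were fitted (0.20). Cxcl5 fell 5.25-fold at 7 h of H2O2 (log2 -2.39, SE 0.11, adjusted p 8.2e-11) and rose 1.88-fold at 2 h (log2 0.91) and 2.20-fold at 7 h of KCl (log2 1.14, SE 0.10, adjusted p 1.3e-07). At 7 h it was therefore 11.6-fold lower in H2O2 than in KCl (log2 -3.53, SE 0.11, adjusted p 1.5e-12). Heat at 44 °C left 42.0 and 38.4 CPM of the 162 and 158 CPM in the control, a 3.98-fold fall (log2 -1.99, SE 0.05, adjusted p 9.1e-13). At 42 °C the libraries had 131 and 129 CPM, a smaller fall (log2 -0.30, SE 0.04).

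Cxcl12 fell wherever it was called. The control had 199.9 and 188 CPM, H2O2 gave 109.9 and 111 CPM at 2 h and 35.2 and 38.8 CPM at 7 h, and KCl gave 182 and 183 CPM at 2 h and 139.5 and 151 CPM at 7 h. The H2O2 groups formed descending steps below the control, and KCl at 2 h lay only just under it. The falls were 1.76-fold at 2 h (log2 -0.81, SE 0.06) and 5.25-fold at 7 h of H2O2 (log2 -2.39, SE 0.07, adjusted p 1.1e-12), and 1.34-fold at 7 h of KCl (log2 -0.42, SE 0.06). The difference at 2 h of KCl (log2 -0.08) was not called, but was -0.28 and called on log2(TPM + 1). In heat the libraries had 215 and 231 CPM in the control, 224 and 221 CPM at 44 °C and 182 and 189 CPM at 42 °C. The 44 °C libraries lay between those of the control (log2 -0.00, not called), while on log2(TPM + 1) Cxcl12 was 0.23 higher and called. At 42 °C it fell by 0.26 (SE 0.04).

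Ccl2, the main monocyte attractant, reached the highest CPM of the 10 genes in any group. Control libraries had 159 and 147 CPM, H2O2 gave 895 and 816 CPM at 2 h and 193 and 218 CPM at 7 h, and KCl gave 254 and 251 CPM at 2 h and 131 and 119.6 CPM at 7 h. H2O2 at 2 h stood far above all other groups, and KCl crossed from above to below the control. Ccl2 rose 5.59-fold at 2 h of H2O2 (log2 2.48, SE 0.08, adjusted p 1.2e-11) and was still 1.34-fold higher at 7 h (log2 0.42). In KCl it was 1.65-fold higher at 2 h (log2 0.72) and 1.22-fold lower at 7 h (log2 -0.29). In heat the libraries held 79.9 and 81.4 CPM in the control, 42.3 and 41.8 CPM at 44 °C, and 173 and 170.2 CPM at 42 °C. The heat treatments thus lay on opposite sides of the control, 1.92-fold lower at 44 °C (log2 -0.94, SE 0.04) and 2.13-fold higher at 42 °C (log2 1.09, SE 0.04).

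Ccl7, another monocyte attractant, is the next gene after Ccl2 on chromosome 11 (Ccl2 at chr11:82035577-82037452, Ccl7 at chr11:82045712-82047525). Its libraries had 44.7 and 38.9 CPM in the control, 111 and 94.1 CPM at 2 h and 13.3 and 14.1 CPM at 7 h of H2O2, and 56.8 and 56.5 CPM at 2 h and 31.5 and 28.1 CPM at 7 h of KCl. None of the groups overlapped. Ccl7 rose 2.45-fold at 2 h of H2O2 (log2 1.29, SE 0.09) and fell 3.06-fold at 7 h (log2 -1.61, SE 0.10, adjusted p 3.4e-09), where Ccl2 remained above its control. Under KCl it was 0.44 higher at 2 h and 0.49 lower at 7 h on the log2 scale. In heat it had 33.0 and 29.6 CPM in the control, 20.4 and 18.5 CPM at 44 °C and 85.7 and 85.2 CPM at 42 °C. Like Ccl2 it was lower at 44 °C (log2 -0.69, SE 0.07) and higher at 42 °C, by 2.73-fold (log2 1.45, SE 0.06, adjusted p 1.8e-10).

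Tnfaip3 encodes A20, a ubiquitin-editing enzyme that shuts off signalling from cytokine receptors to NF-kB, and it made the largest rise of the 10 genes under H2O2, KCl at 2 h and 42 °C. The control had 24.9 and 26.8 CPM, H2O2 gave 385 and 462 CPM at 2 h and 43.1 and 54.2 CPM at 7 h, and KCl gave 113 and 111 CPM at 2 h and 44.1 and 45.6 CPM at 7 h. All stressed libraries were above the control, and the 7 h libraries of the 2 stresses overlapped. The rise was 16.4-fold at 2 h of H2O2 (log2 4.04, SE 0.11, adjusted p 4.3e-12), rank 354 of 13256 genes by log2 change, and 4.33-fold at 2 h of KCl (log2 2.12, SE 0.10). At 7 h it was 1.88-fold for H2O2 and 1.74-fold for KCl. In heat the control had 21.3 and 20.4 CPM, 44 °C had 14.6 and 16.6 CPM, and 42 °C had 104 and 95.9 CPM. Tnfaip3 was lower at 44 °C (log2 -0.43, SE 0.08) and 4.79-fold higher at 42 °C (log2 2.26, SE 0.06, adjusted p 2.7e-12).

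Nfkbia, which encodes the inhibitor IkB-alpha, was higher under both stresses of its experiment and lower under both heat treatments. The control had 64.1 and 68.2 CPM, H2O2 gave 209 and 234 CPM at 2 h and 106 and 118 CPM at 7 h, and KCl gave 137 and 118 CPM at 2 h and 103 and 110.2 CPM at 7 h. Every stressed library was above the control, and the 7 h groups of H2O2 and KCl overlapped. The rises were 3.35-fold at 2 h (log2 1.74, SE 0.08, adjusted p 9.4e-10) and 1.69-fold at 7 h of H2O2 (log2 0.76), and 1.93-fold (log2 0.95) and 1.61-fold (log2 0.69) at 2 h and 7 h of KCl. In heat the libraries had 64.3 and 66.3 CPM in the control, 44.7 and 45.0 CPM at 44 °C and 49.2 and 48.5 CPM at 42 °C. Nfkbia was thus 1.46-fold lower at 44 °C (log2 -0.54, SE 0.05) and 1.34-fold lower at 42 °C (log2 -0.42, SE 0.05).

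Nfkbiz encodes IkB-zeta, a nuclear member of the IkB family that works as a co-activator at a subset of NF-kB targets. Nfkbiz alone of the 10 was higher in all 6 stresses. The control of H2O2 and KCl had 24.4 and 27.3 CPM, H2O2 gave 53.5 and 55.5 CPM at 2 h and 32.1 and 36.0 CPM at 7 h, and KCl gave 68.6 and 73.0 CPM at 2 h and 79.2 and 86.6 CPM at 7 h. The KCl groups were the highest and continued upward at 7 h, with no overlap between groups. The rises were 2.11-fold and 1.32-fold at 2 h and 7 h of H2O2 (log2 1.08 and 0.40) and 2.75-fold and 3.21-fold at 2 h and 7 h of KCl (log2 1.46 and 1.68, SE 0.08 each). In heat it rose from 31.6 and 30.2 CPM to 50.3 and 50.3 CPM at 44 °C (log2 0.70, SE 0.05) and to 65.2 and 68.0 CPM at 42 °C (log2 1.11, SE 0.05).

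Nfkb1 encodes p105, the precursor of the NF-kB subunit p50, and moved little under heat. The control had 149 and 149 CPM, H2O2 gave 278 and 253 CPM at 2 h and 128 and 130.3 CPM at 7 h, and KCl gave 279.9 and 271 CPM at 2 h and 200.3 and 217 CPM at 7 h. The 2 h groups of the 2 stresses overlapped, and only the 7 h H2O2 libraries were below the control. The rises were 1.79-fold after 2 h in H2O2 (log2 0.84, SE 0.06), 1.85-fold after 2 h in KCl (log2 0.89) and 1.40-fold at 7 h of KCl (log2 0.49), and the fall at 7 h of H2O2 was 1.15-fold (log2 -0.20). In heat the libraries had 147 and 145 CPM in the control, 156 and 162 CPM at 44 °C and 159.8 and 161 CPM at 42 °C. The excess of 0.12 at 44 °C was not called without control replicate 1 (0.13) or 2 (0.11) or without 44 °C replicate 2 (0.09). The excess of 0.14 at 42 °C was not called without control replicate 2 (0.13) or 42 °C replicate 2 (0.13), and on log2(TPM + 1) it was -0.05.

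Relb encodes the subunit of the non-canonical NF-kB branch that pairs with p52. The control had 53.4 and 51.6 CPM, H2O2 gave 97.6 and 85.8 CPM at 2 h and 64.7 and 61.8 CPM at 7 h, and KCl gave 47.7 and 41.7 CPM at 2 h and 31.9 and 36.5 CPM at 7 h. All H2O2 libraries lay above and all KCl libraries below the control. Relb rose 1.75-fold at 2 h of H2O2 (log2 0.80, SE 0.08) and fell 1.54-fold at 7 h of KCl (log2 -0.62, SE 0.09). The difference at 7 h of H2O2 (log2 0.27, SE 0.08) was called but not without control replicate 2 (0.24) or H2O2 replicate 1 (0.15), and that at 2 h of KCl (log2 -0.23, SE 0.09) not without control replicate 1 (-0.21) or 2 (-0.26) or KCl replicate 2 (-0.14). In heat it had 54.7 and 51.5 CPM in the control, 34.7 and 39.9 CPM at 44 °C and 52.2 and 54.5 CPM at 42 °C. It fell by 0.51 at 44 °C (SE 0.06), while the 42 °C libraries lay among those of the control (log2 0.00, not called). On log2(TPM + 0.1) the 42 °C value was -0.16 and called, where the median of all genes was -0.20.

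Direct comparisons between stresses asked how the course over time and the kind of stress mattered. All 10 genes were lower at 7 h than at 2 h of H2O2, where 73.4% of all genes were called (37.3% higher and 36.1% lower), with a median log2 difference of -1.82 against 0.00 for all genes. The largest drops were 3.40 for Cxcl1 (SE 0.10), 3.13 for Tnfaip3 (SE 0.10) and 2.91 for Ccl7 (SE 0.10), and the smallest was that of Relb (log2 -0.53, SE 0.08). Between 2 h and 7 h of KCl 8 genes were lower (33.7% of all genes) and 2 higher (35.1%), where 68.8% of all genes were called, with a median of -0.40. Those that were higher, Cxcl5 (log2 0.23) and Nfkbiz (log2 0.23), were not called when single libraries were left out. This held for Cxcl5 without replicate 1 of 2 h (0.08) or of 7 h (0.17) and for Nfkbiz without replicate 1 of 2 h (0.18) or replicate 2 of 7 h (0.16). The lower value of Nfkbia at 7 h of KCl (log2 -0.26) was likewise not called without replicate 1 of 2 h (-0.15) or of 7 h (-0.21).

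At 2 h, H2O2 and KCl differed for 9 of the 10 genes (51.3% of all genes called), with 6 higher in H2O2 (27.0% of all genes) and 3 lower (24.2%). Tnfaip3 was 3.79-fold (log2 1.92), Ccl2 3.39-fold (log2 1.76) and Relb 2.05-fold (log2 1.03) higher in H2O2, while Cxcl12 (log2 -0.73), Cxcl5 (log2 -0.71) and Nfkbiz (log2 -0.38) were lower. Nfkb1 was not called (log2 -0.05, SE 0.06). At 7 h 8 genes were called (78.4% of all genes called), with 6 lower in H2O2 (37.4% of all genes) and 2 higher (41.0%). Cxcl5, Cxcl12 (log2 -1.97), Cxcl1 (log2 -1.34) and Nfkbiz (log2 -1.29) showed the largest deficits, and Relb (log2 0.89) and Ccl2 (log2 0.71) were higher. Nfkbia (log2 0.07, SE 0.08) and Tnfaip3 (log2 0.11, SE 0.11) were not called, but Tnfaip3 was called without H2O2 replicate 1 of 7 h (0.26).

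The heat treatments differed in both temperature and duration. Compared with 44 °C for 2 h, 8 genes were higher at 42 °C for 8 h (37.9% of all genes) and Cxcl12 was lower (37.2%), where 75.1% of all genes were called. The largest differences were those of Tnfaip3 (log2 2.69, SE 0.07), Ccl7 (log2 2.13, SE 0.07), Ccl2 (log2 2.03, SE 0.04) and Cxcl5 (log2 1.69, SE 0.05). The excess of Nfkbia at 42 °C (log2 0.12, SE 0.05) was not called without replicate 1 (0.12) or 2 (0.13) of 44 °C or replicate 1 (0.12) or 2 (0.14) of 42 °C, and was -0.13 on log2(TPM + 1). Nfkb1 was not called (log2 0.01), while on log2(TPM + 1) it was -0.23 and called. All genes together had a median of -0.20 on log2(TPM + 1).

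Over the 12 stressed RNA libraries, each taken as a log2 difference from its own control mean, the 10 genes did not form a single pattern. Of their 45 pairs, 6 had a Pearson r over 0.8 and 6 an r below 0, with a median of 0.56. Replicates share a treatment, all libraries of an experiment share a control, and the values are a description with no test. Ccl2 and Tnfaip3 were most alike (r = 0.98), followed by Cxcl5 and Nfkbiz (r = 0.96), and Cxcl12 and Relb were least alike (r = -0.50). Among all 12452 genes measured in both experiments, the closest to Ccl2 was Plscr1 (r = 0.98), to Tnfaip3 Dusp8 (r = 0.98), to Relb Junb (r = 0.98), to Cxcl5 S100a4 (r = 0.99) and to Nfkbiz Rab3gap2 (r = 0.99). The closest to Cxcl1 was Acp2 (r = 0.96), to Cxcl12 Ctdsp2 (r = 0.98), to Ccl7 Gorasp2 (r = 0.98), to Nfkbia Pi16 (r = 0.97) and to Nfkb1 Ccdc80 (r = 0.99).

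Ribosome footprints were compared with the same control as the RNA of H2O2 and KCl. Fewer genes were called in footprints, whose libraries were shallower and whose replicates of the 10 genes differed by a median ratio of 1.35 (at most 2.95), against 1.07 in RNA. H2O2 at 2 h raised 3 of the 10 genes (Cxcl1, Nfkbia and Tnfaip3), where 1.91% of all genes were called (1.14% higher and 0.768% lower). At 7 h it lowered 4 (Cxcl5, Cxcl12, Ccl7 and Tnfaip3), where 27.7% of all genes were called (17.2% higher and 10.6% lower). KCl at 2 h raised Nfkbiz and lowered Relb, where 6.86% of all genes were called (1.79% higher and 5.06% lower). At 7 h it raised Cxcl5 and lowered Tnfaip3 and Relb, where 20.4% of all genes were called (10.5% higher and 9.83% lower). The 3 at 2 h of H2O2 became 0 without control replicate 2 and 1 without control replicate 1 or H2O2 replicate 1, where edgeR's test on all libraries had 4 genes at an unadjusted p under 0.05. The 4 at 7 h of H2O2 became 2 without H2O2 replicate 2, and the 2 at 2 h of KCl became 1 without KCl replicate 1. The shares of all genes in these refits are not given here, so the lost calls do not set the 10 genes apart. Genes that were not called are not thereby shown to be unchanged.

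**Figure D3:**
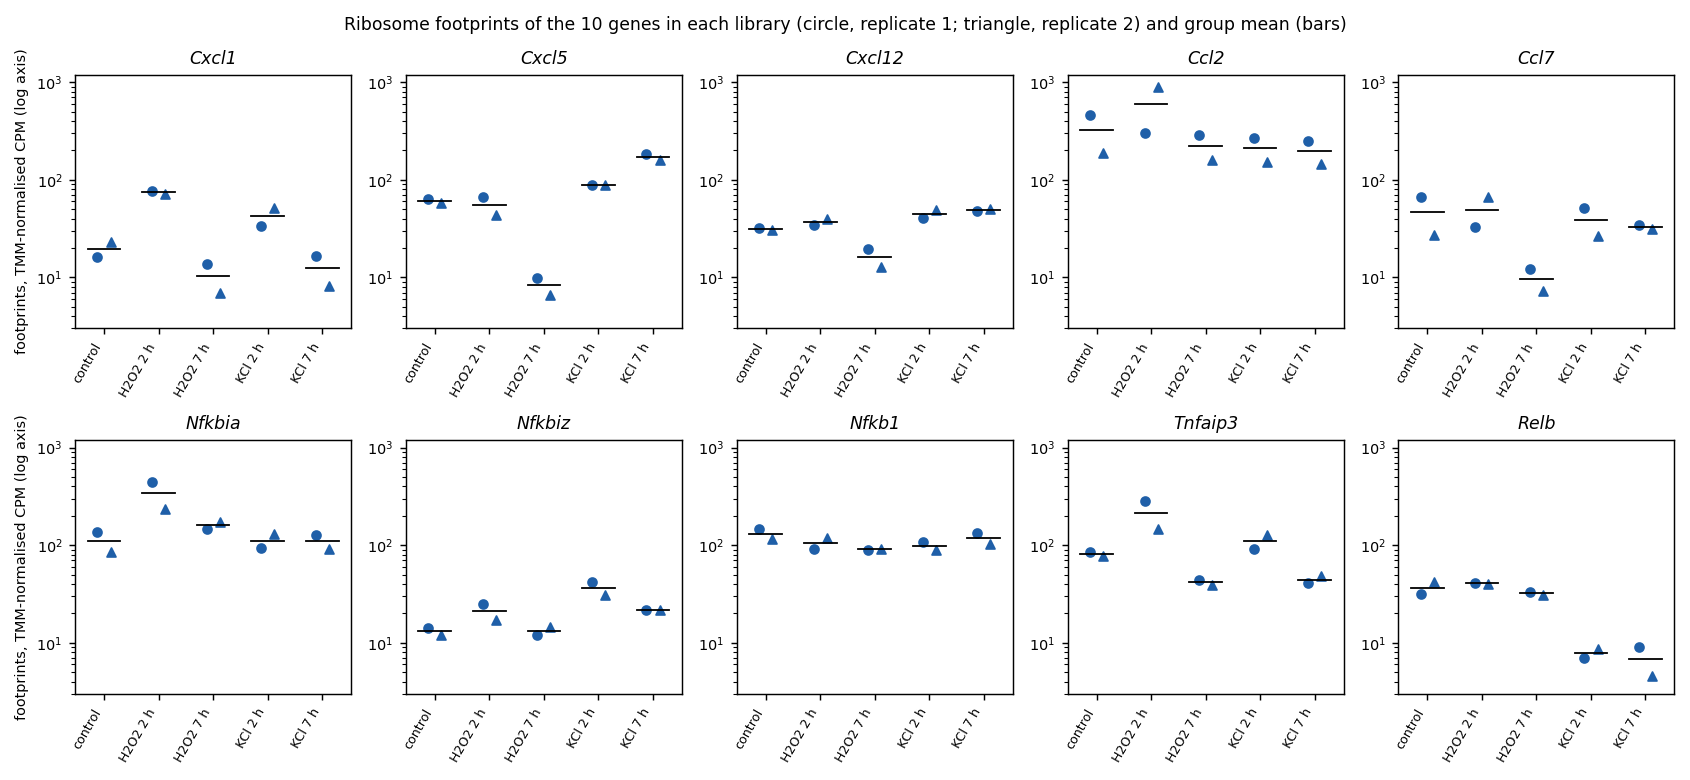
Footprint level of each gene on a log axis in CPM, with replicate 1 as a circle, replicate 2 as a triangle and the group mean as a bar. Relb drops below 10 CPM in all 4 KCl libraries, Cxcl5 drops below 10 CPM at 7 h of H2O2, and the Ccl2 replicates lie far apart.

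Translational efficiency (footprints relative to RNA) was tested as the difference between the footprint and the RNA change in a model over the 20 libraries. It was called for 3 of the 10 genes at 2 h of H2O2, 1 higher and 2 lower, beside 11.4% of all genes (3.98% higher and 7.46% lower). After 7 h of H2O2 it was called for 2, 1 in each direction, beside 9.27% (4.69% higher and 4.57% lower). KCl gave 3, all lower, after 2 h, beside 12.8% (3.58% higher and 9.18% lower), and 4 after 7 h, 1 higher and 3 lower, beside 5.57% (1.69% higher and 3.88% lower). Tnfaip3 was lower in all 4 comparisons and Cxcl12 higher in 3. At 2 h of H2O2 and of KCl, some ratios gained a call when a single footprint library was left out, as given below for each gene. The shares of all genes in these fits are not given here. The median change of the 10 genes was -0.62, -0.42, -0.85 and -0.66 in that order, where the medians of all genes were -0.01, 0.06, -0.02 and 0.01. These 4 comparisons share their control libraries. The spread of a gene was estimated jointly over both kinds of library, although footprint replicates differed more than RNA replicates. SEs and p-values of the ratio can therefore be too small. With limma voom and a weight per kind of library, the Nfkbiz ratio at 7 h of KCl was not called (-0.95) and the Ccl2 ratio at 2 h of H2O2 was (-1.64). The other ratio calls of the 10 genes stayed the same there.

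**Figure D4:**
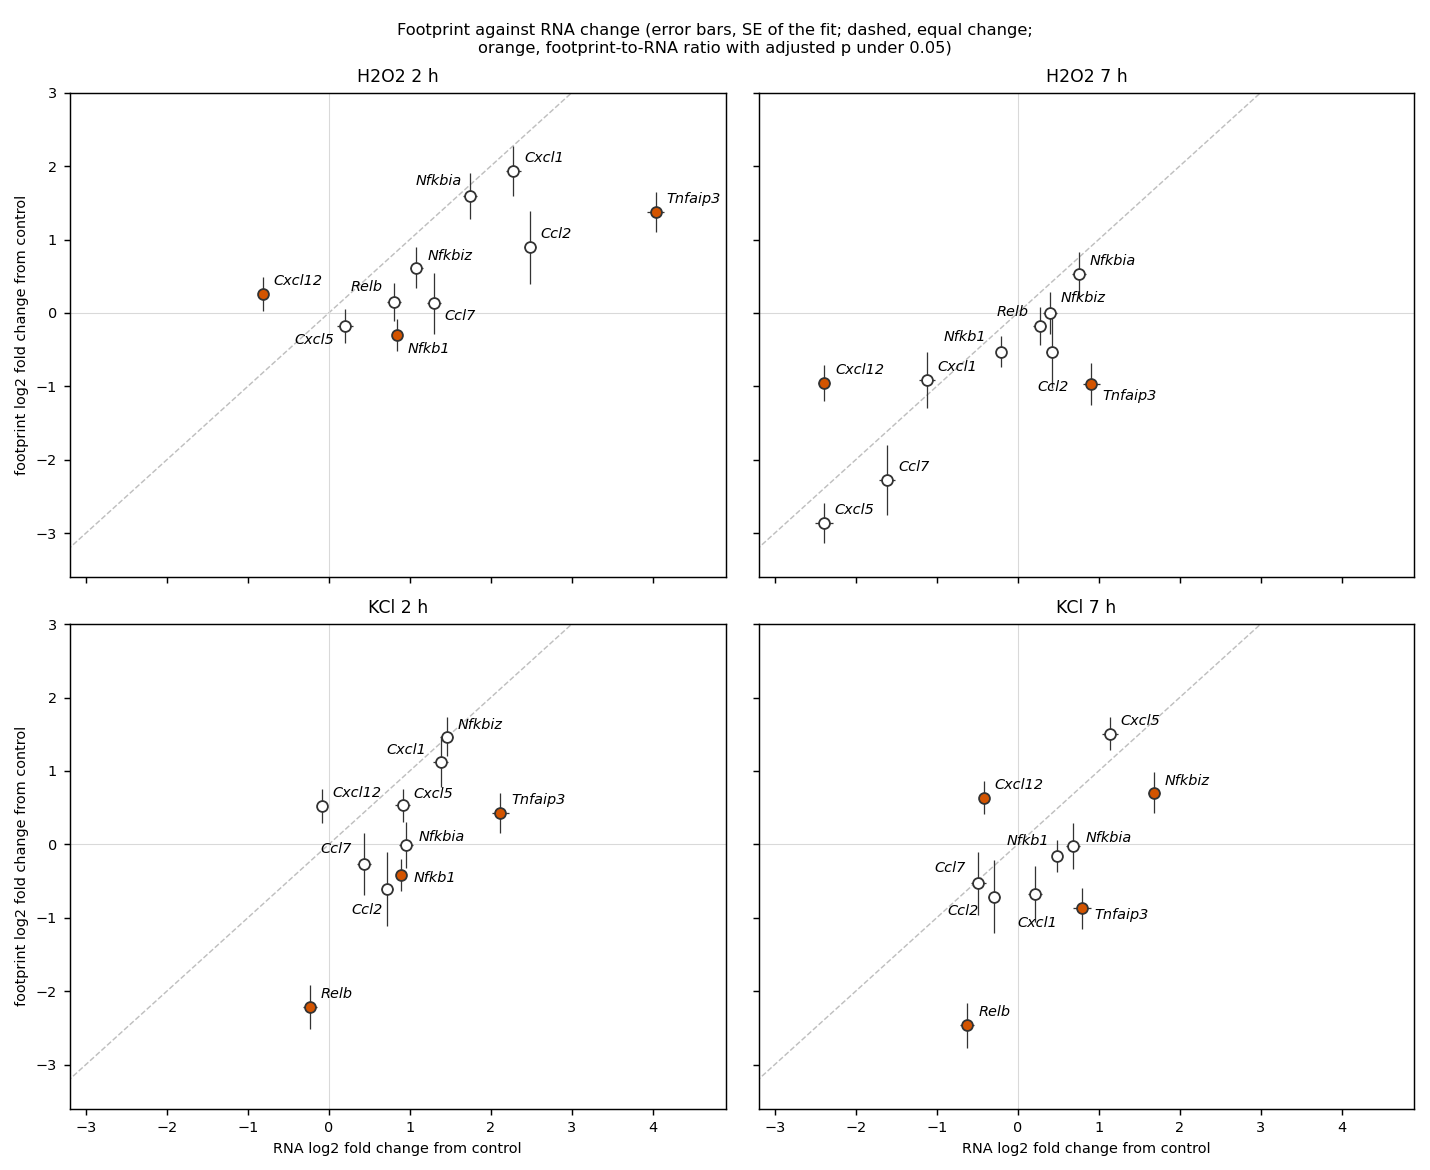
Footprint against RNA log2 fold change of the 10 genes in each stress, with SE bars; on the dashed line both changed equally, and orange points were called in the test of the ratio. Tnfaip3 lies right of and below the line in all 4 panels, Relb far below it under KCl, and Cxcl12 above it in every panel.

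Tnfaip3 footprints rose far less than its RNA. The control had 84.6 and 78.0 CPM, H2O2 gave 281 and 145 CPM at 2 h and 43.8 and 39.2 CPM at 7 h, and KCl gave 92.2 and 127 CPM at 2 h and 40.6 and 47.9 CPM at 7 h. The 7 h libraries of both stresses were below the control although their RNA was above it. Against the 16.4-fold RNA rise at 2 h of H2O2, footprints rose 2.59-fold (log2 1.37, SE 0.27, adjusted p 0.024), a fall of the ratio by 2.73 (SE 0.31, adjusted p 5.6e-05). The ratio also fell by 1.88 at 7 h of H2O2 (SE 0.32), by 1.70 at 2 h of KCl (SE 0.31) and by 1.64 at 7 h of KCl (SE 0.32, adjusted p 0.0065). The footprint calls themselves were less firm. At 2 h of H2O2 the call was lost without H2O2 replicate 1 (0.84) or control replicate 1 (1.42) or 2 (1.31), and on log2(TPM + 1) (1.20). At 7 h of H2O2 the fall of 0.97 was not called without H2O2 replicate 1 (-1.10) or 2 (-0.93) or control replicate 1 (-0.96). At 7 h of KCl the fall of 0.87 was not called without KCl replicate 1 (-0.76) or 2 (-1.003) or control replicate 1 (-0.81) or 2 (-0.93).

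Relb footprints fell under KCl far beyond the RNA. They had 31.5 and 41.8 CPM in the control, 40.7 and 40.3 CPM at 2 h and 33.3 and 31.1 CPM at 7 h of H2O2, and 7.04 and 8.69 CPM at 2 h and 9.02 and 4.54 CPM at 7 h of KCl. The KCl libraries were all well below every other library. Footprints fell 4.64-fold at 2 h (log2 -2.21, SE 0.30, adjusted p 0.0012) and 5.53-fold at 7 h of KCl (log2 -2.47, SE 0.31, adjusted p 0.00027). RNA fell by 0.23 and 0.62 in the same comparisons, so the ratio fell by 2.00 (SE 0.28, adjusted p 0.00017) and 1.84 (SE 0.29, adjusted p 0.0015). Under H2O2 the ratio was 0.69 lower at 2 h (SE 0.22, adjusted p 0.053) and 0.45 lower at 7 h, neither called, and the former was called without control footprint replicate 1 (-0.89).

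Cxcl12 was the member whose ratio rose. Its footprints had 32.0 and 30.8 CPM in the control, 34.7 and 39.8 CPM at 2 h and 19.6 and 12.7 CPM at 7 h of H2O2, and 40.9 and 49.4 CPM at 2 h and 47.7 and 49.9 CPM at 7 h of KCl. Only the 7 h H2O2 libraries were below the control. Its footprint fall there, 1.94-fold (log2 -0.96, SE 0.24), was smaller than the 5.25-fold fall of RNA and was not called without H2O2 replicate 2 (-0.72). The ratio rose by 1.05 at 2 h of H2O2 (SE 0.20, adjusted p 0.0033), by 1.43 at 7 h (SE 0.22, adjusted p 0.00082) and by 1.08 at 7 h of KCl (SE 0.20, adjusted p 0.0038). At 2 h of KCl the difference of 0.60 (SE 0.20, adjusted p 0.058) was not called, but was without KCl footprint replicate 1 (0.73).

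Nfkb1 footprints did not follow the rise of its RNA at 2 h. They had 146 and 115 CPM in the control, 92.0 and 119 CPM at 2 h and 90.0 and 91.9 CPM at 7 h of H2O2, and 108 and 88.3 CPM at 2 h and 134 and 102 CPM at 7 h of KCl. No stressed library exceeded control replicate 1, and no footprint difference was called (log2 -0.30 for H2O2 and -0.42 for KCl at 2 h, SE 0.21 each). The ratio fell by 1.17 at 2 h of H2O2 (SE 0.22, adjusted p 0.0028) and by 1.32 at 2 h of KCl (SE 0.22, adjusted p 0.0007). At 7 h of KCl the ratio was 0.62 lower and not called, but was called without KCl footprint replicate 1 (-0.82).

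Nfkbia footprints had 137 and 85.2 CPM in the control, 444 and 233 CPM at 2 h and 146 and 174 CPM at 7 h of H2O2, and 92.6 and 129 CPM at 2 h and 128 and 91.9 CPM at 7 h of KCl. Only the H2O2 libraries lay above both controls. They rose 3.02-fold at 2 h of H2O2 (log2 1.59, SE 0.32, adjusted p 0.023), which was not called without H2O2 replicate 1 (1.06) or control replicate 2 (1.28) or when only these groups were fitted (1.60). The Nfkbia ratio at 2 h of KCl was 0.97 lower (SE 0.35, adjusted p 0.08), not called, but was without control footprint replicate 2 (-1.27). Nfkbiz footprints had 14.2 and 12.1 CPM in the control, 24.7 and 17.3 CPM at 2 h and 11.96 and 14.4 CPM at 7 h of H2O2, and 42.3 and 30.6 CPM at 2 h and 21.4 and 21.6 CPM at 7 h of KCl. KCl at 2 h was the highest group, with a rise of 2.77-fold (log2 1.47, SE 0.27, adjusted p 0.0063) that was not called without KCl replicate 1 (1.22). Its ratio at 7 h of KCl (log2 -0.95, SE 0.25, adjusted p 0.038) was called by edgeR's test on all libraries, but not with limma voom (-0.95). The call was also lost when any single library of the control or of KCl at 7 h was left out (-0.83 to -1.05).

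Among the chemokines, Cxcl1 footprints had 16.1 and 22.8 CPM in the control, 76.7 and 72.2 CPM at 2 h and 13.7 and 6.91 CPM at 7 h of H2O2, and 33.5 and 51.5 CPM at 2 h and 16.5 and 8.23 CPM at 7 h of KCl. H2O2 at 2 h was the highest group without overlap, a rise of 3.82-fold (log2 1.93, SE 0.34, adjusted p 0.013) that was not called without control replicate 1 (1.69) or 2 (2.20). At 7 h of H2O2 the difference of -0.91 was not called, but was without H2O2 replicate 1 (-1.53). Cxcl5 had 63.3 and 58.3 CPM in the control, 66.7 and 43.5 CPM at 2 h and 9.96 and 6.62 CPM at 7 h of H2O2, and 88.2 and 87.6 CPM at 2 h and 185 and 161 CPM at 7 h of KCl. The ends of the range were again H2O2 and KCl at 7 h, with a fall of 7.30-fold (log2 -2.87, SE 0.27, adjusted p 7.2e-06) and a rise of 2.84-fold (log2 1.51, SE 0.23, adjusted p 0.00081). Neither gene's ratio was called in any comparison (log2 -0.88 to 0.40).

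Ccl2 and Ccl7 footprints spread widely between replicates. Ccl2 had 457 and 189 CPM in the control, 302 and 889.8 CPM at 2 h and 288 and 161 CPM at 7 h of H2O2, and 270.4 and 153 CPM at 2 h and 249 and 146 CPM at 7 h of KCl. Every group overlapped the control, and no Ccl2 footprint difference was called (log2 0.89 at 2 h of H2O2, SE 0.50). The Ccl2 ratio at 2 h was 1.62 lower in H2O2 and 1.34 lower in KCl, neither called. The H2O2 value was called without H2O2 footprint replicate 2 (-2.63) or control footprint replicate 2 (-2.12), and the KCl value without control footprint replicate 2 (-1.84). Ccl7 had 66.5 and 27.5 CPM in the control, 32.7 and 66.5 CPM at 2 h and 12.2 and 7.20 CPM at 7 h of H2O2, and 51.7 and 26.8 CPM at 2 h and 34.2 and 31.2 CPM at 7 h of KCl. Only H2O2 at 7 h was clear of the control, a fall of 4.83-fold (log2 -2.27, SE 0.47, adjusted p 0.0031). The Ccl7 ratio at 2 h, not called, was 1.14 lower in H2O2 and 0.72 lower in KCl. It was called in H2O2 without H2O2 footprint replicate 2 (-1.89) or control footprint replicate 2 (-1.62), and in KCl without the latter (-1.20).

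Other genes of the pathway were counted in the same fits, and their counts read against the shares of all genes tested. Those shares were 27.3% higher and 26.5% lower after H2O2 for 2 h, and 39.4% and 31.1% after 7 h. At 2 h of H2O2, 7 of 10 other chemokines tested were higher and the other 3 were not called, led by Ccl20, from 0.745 and 0.603 CPM to 31.4 and 31.3 CPM, and Cxcl2, from 0.0827 and 0.183 CPM to 4.31 and 5.17 CPM. Of 12 other NF-kB targets of fibroblasts, 11 were higher and 1 lower. Among them Ptgs2, the inducible cyclooxygenase, rose from 129 and 137 CPM to 1827 and 1986 CPM (log2 3.84). At 7 h of H2O2, 10 of the 12 were higher and 1 lower, and Icam1, an adhesion molecule for white blood cells, reached 47.1 and 45.1 CPM from 1.24 and 1.23 CPM (log2 5.22). The median log2 change of these targets was 0.96 at 2 h and 1.28 at 7 h of H2O2. That of the 5 chemokines described here was 1.29 and -1.61, with 1 higher and 4 lower at 7 h. The 10 other chemokines had medians of 1.32 and 0.37, with 5 higher, 1 lower and 4 not called at 7 h. The lists were not tested against each other.

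Under KCl, 27.2% of all genes were higher and 27.0% lower at 2 h, and 37.2% and 31.6% at 7 h. Of the other chemokines, 3 of 10 were higher and 1 lower at 2 h, and 4 higher and 3 lower at 7 h. Of the 12 targets, 5 were higher and 1 lower at 2 h, and 3 higher and 2 lower at 7 h, led by Ptgs2 (log2 3.74 and 3.03). The shares of chemokines that were higher lay near these backgrounds. Heat at 42 °C raised 7 of 10 targets tested and lowered 2, and 44 °C raised 5 and lowered 2, where 31.7% of all genes were higher and 31.9% lower at 42 °C, and 35.4% and 35.7% at 44 °C. Ptgs2 was higher at both temperatures (log2 2.27 and 0.61). Of 11 other chemokines, 5 were lower and 1 higher at 42 °C, and 3 lower and 4 higher at 44 °C. Cxcl15 (log2 -2.95 and -2.86) and Cxcl14 (log2 -2.21 and -2.79) fell most at both.

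Of 7 other NF-kB subunits and IkB genes tested, 6 were higher and Bcl3 (log2 -0.86) lower at 2 h of H2O2, with Rel (log2 1.15) and Nfkbie (log2 1.09) the most raised. At 2 h of KCl 2 were higher and 3 lower, and Bcl3 again fell most (log2 -1.48). Of 10 other feedback genes, 6 were higher and 1 lower at 2 h of H2O2, with Traf1 (log2 2.11) and Birc3 (log2 1.56) leading, against 4 higher and 3 lower at 2 h of KCl. Of 15 kinases and adaptors, 9 were higher and 3 lower at 2 h of H2O2, 2 higher and 5 lower at 2 h of KCl, and 11 higher and 2 lower at 7 h of KCl. Of 9 upstream ligands and receptors, 5 were higher and 2 lower at 2 h of H2O2, where Tnf went from 0.0414 and 0.0524 CPM to 1.17 and 1.68 CPM. At 42 °C, in the heat fit, whose 9 genes included Il33 and not Tnf, 7 were lower and 1 higher, against 31.9% and 31.7% of all genes.

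Of 9 genes listed for control of the decay of chemokine and IkB messages, some of which slow it, 7 were higher and 1 lower at 2 h of H2O2. This compares with 27.3% and 26.5% of all genes. The largest rises were those of Arid5a (log2 2.63) and Zfp36 (log2 2.54), which encodes tristetraprolin, a protein that speeds the decay of AU-rich messages. KCl at 2 h raised 7 and lowered 1, with Zfp36l1 (log2 1.60) first, where 27.2% of all genes rose and 27.0% fell. Of 8 chemokine receptors, Ackr3, a scavenging receptor for Cxcl12, was the 1 that could be tested. Its RNA was lower at 44 °C (log2 -0.96), 42 °C (log2 -0.48) and 7 h of H2O2 (log2 -1.12). KCl lowered its RNA at 2 h and 7 h (log2 -0.47 and -1.29). Ackr3 footprints were not called in any comparison (log2 0.15 to 0.80). Its ratio of footprints to RNA was called higher at 7 h of H2O2 (log2 1.39) and was not called elsewhere (log2 0.80 to 1.45). In the ratio of footprints to RNA, 4 of 10 other targets were lower and the other 6 not called at 2 h of H2O2, where 7.46% of all genes were lower. The 4 included Ptgs2 (log2 -3.14) and Mmp3 (log2 -1.83). KCl at 2 h lowered 3, including Ptgs2 (log2 -2.27), where 9.18% of all genes were lower.

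The authors also deposited calls and estimates of read-in, transcription from an upstream gene that continues into its downstream neighbour, for 6399 neighbouring pairs. Of these, 8 pairs held a gene described here, and none of their 128 values per pair and library was a read-in call. Over all pairs 1415 values, or 1.38%, were such calls, so a count of 0 is close to that background. For Ccl2 into Ccl7 the deposited estimate, a ratio of at least 0 for which the sources used here give no formula, was at most 0.000503. The highest estimates were those of Relb into Clasrp, a gene for a splicing-related protein. They were 0.473 and 0.582 at 42 °C, 0.054 and 0.0604 at 44 °C and 0.0141 and 0.0175 in the heat control. In the other experiment the control had 0.0509 and 0.0238. H2O2 gave estimates of 0.133 and 0.102 after 2 h, then 0.0216 and 0.0276 after 7 h. KCl gave estimates of 0.0528 and 0.00916 after 2 h, then 0 and 0.0156 after 7 h. The 42 °C libraries stood far above the rest, yet 5.86% and 5.70% of pairs with a finite estimate were as high or higher there. Relb RNA was not called at 42 °C, and Clasrp had 34.1 and 37.5 TPM there against 37.7 and 39.6 TPM in the control. The estimates were not tested. The authors' table of calls of DoGs, transcripts that run on past a gene's end, covers the same pairs. It held 20 calls among the 128 values, or 15.6%, against 28.5% over all pairs. Cxcl5 before Ppbp and Clptm1 before Relb had 5 calls each of 16 libraries, and Ccl2 before Ccl7 had 3. Cxcl12 before Zfp637 had 2, both at 44 °C. Albfm1 before Cxcl5 also had 2, and the other 3 pairs had 1 each. That of Relb before Clasrp was in replicate 2 of H2O2 at 7 h, and neither 42 °C library had one for this pair. No DoG call was tested.

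**Figure D5:**
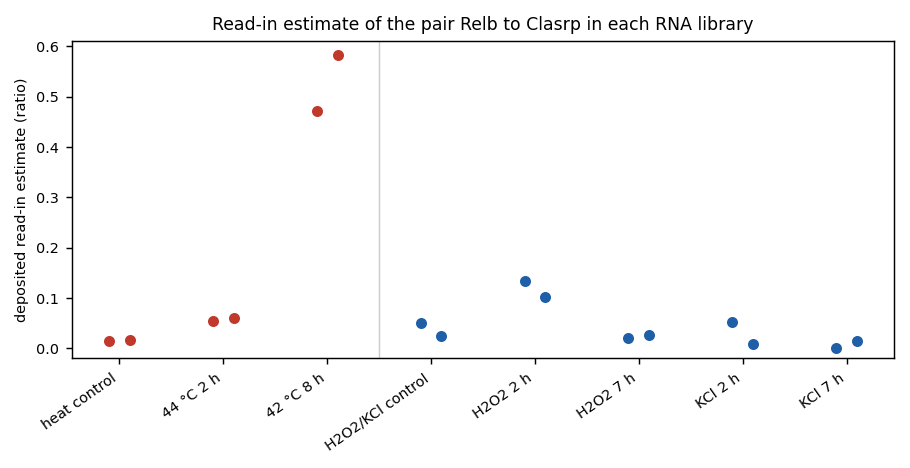
The authors' deposited read-in estimate (a ratio, linear axis) from Relb into Clasrp, with a point for each RNA library; red is heat and blue is H2O2 and KCl. The 42 °C libraries lie at 0.473 and 0.582 and no other library exceeds 0.133.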

How the data were processed

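The measurements are polyA RNA (16 libraries) and ribosome footprints (10 libraries). The authors deposited expected counts per gene, already whole numbers in the tables, and TPM values. They also deposited a read-in ratio per neighbouring gene pair, for which the sources used here give no formula, with calls as true or false. STAR, RSEM, Bowtie and the build mm10 are listed per the submitters' processing notes, with no roles or versions. Another 12 table columns could be tied to no labelled sample and were left out.

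Expected counts were fitted in R 4.3.3 with edgeR 4.0.16 (TMM, its default filter on low counts, quasi-likelihood test), separately for RNA of the heat experiment (12747 genes), RNA of the H2O2 and KCl experiment (13256 genes) and footprints (10545 genes). The difference between footprint and RNA change was an interaction term (10480 genes). P-values were Benjamini-Hochberg adjusted over all genes of a fit, with calls under 0.05. SE is the absolute log2 fold change divided by the square root of the F statistic. Likeness used log2(CPM + 0.5). The scripts were tested on simulated data, in which footprint and RNA libraries of the ratio also shared their spread per gene. Alternatives were DESeq2 1.42.0, limma 3.58.1 on log2(TPM + 1) and log2(TPM + 0.1), limma voom for the ratio, other size factors, no filter, a fold threshold, fits of only the groups compared, a replicate block and leaving out each library.

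The 10 genes were named in full. From each pathway list, at most the 2 called genes with the largest rise and the 2 with the largest fall per comparison were named, and for likeness the closest gene. Ptprc, Adgre1, Lyz2, Tyrobp and Clasrp were named after their values were seen. The members and lists were chosen with earlier results of these data known. RNA libraries held 24441877 to 45244430 counts and footprint libraries 1460751 to 5168537, so footprint values are less precise.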

Additional observations from a re-analysis of the deposited data

Results flagged for a closer look

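For all 10 genes the RNA change from the control differed between 2 h and 7 h of a stress, by the test of that difference itself (edgeR's quasi-likelihood test, Benjamini-Hochberg adjusted). Of all genes tested, 73.4% were called for this difference in H2O2 and 68.8% in KCl, so the count does not set the 10 genes apart. From 2 h to 7 h of H2O2 the log2 difference was -3.40 for Cxcl1, -2.59 for Cxcl5, -1.58 for Cxcl12, -2.06 for Ccl2 and -2.91 for Ccl7. For the NF-kB genes it was -0.98 for Nfkbia, -0.68 for Nfkbiz, -1.04 for Nfkb1, -3.13 for Tnfaip3 and -0.53 for Relb. From 2 h to 7 h of KCl the log2 difference was -1.17 for Cxcl1, 0.23 for Cxcl5, -0.33 for Cxcl12, -1.01 for Ccl2 and -0.92 for Ccl7. For the NF-kB genes it was -0.26 for Nfkbia, 0.23 for Nfkbiz, -0.40 for Nfkb1, -1.32 for Tnfaip3 and -0.39 for Relb. Under KCl the calls of Cxcl5, Nfkbia and Nfkbiz were lost when some single libraries were left out, with the values given above.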

How the results depend on the processing

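Requiring an absolute log2 change of at least 1 left 2 of the 10 genes called in RNA at 44 °C, 4 at 42 °C, 5 between the heat treatments, 4 at 7 h of H2O2, 3 at 2 h and 2 at 7 h of KCl, 3 between 2 h and 7 h of KCl, 3 between H2O2 and KCl at 2 h and 5 at 7 h, and 2 in footprints at 7 h of H2O2. Comparisons whose count changed less are left out. The shares of all genes at this threshold are not given here, so these counts do not set the 10 genes apart. Footprints at 2 h of H2O2 gave 0 called genes with limma on log2(TPM + 0.1) and 0 on log2(TPM + 1), 1 when only these groups were fitted and 3 with DESeq2. Without the low-count filter the ratio at 2 h of H2O2 was called for 5. The shares of all genes under these settings, or with a library left out, are not given here. Such counts therefore do not set the 10 genes apart. Leaving out a library gave 0 to 3 called genes for footprints at 2 h and 2 to 4 at 7 h of H2O2, 1 to 2 at 2 h of KCl, and for the ratio 3 to 5 at 2 h of H2O2 and 3 to 6 at 2 h of KCl; where an arm kept 1 library, it was assumed to vary like the other groups. On log2(TPM + 0.1) and log2(TPM + 1), Cxcl12 at 44 °C was 0.234 and 0.233, Nfkb1 between the heat treatments -0.234 and -0.232, Nfkb1 at 42 °C -0.053 and -0.052, and Nfkbia between the heat treatments -0.128 and -0.126. Relb at 42 °C was -0.157 on log2(TPM + 0.1). The median of all genes on these scales was -0.197 and -0.163 at 42 °C and -0.243 and -0.203 between the heat treatments. The cause of these changes was not tested. Of single-gene values under the alternatives, 1159 in RNA stayed on the same side of the call threshold, 37 lost the call, 5 gained it and 9 reversed. In footprints 407 stayed, 29 lost and 4 gained the call, and for the ratio 534, 10 and 16. A value that changed direction and was called as reported or under the alternative was counted as reversed. Of 788 values of genes not called as reported, 63 changed sign without a call.

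Replicates share only a number, since no label says that it marks a shared culture or day. With a replicate block, counts of called genes in RNA were the same in all 11 comparisons (8 to 10), in footprints 3, 4, 2 and 2 against 3, 4, 2 and 3 without it, and for the ratio 4, 2, 3 and 4 against 3, 2, 3 and 4. Tnfaip3 footprints at 7 h of KCl were not called with the block (-0.87), and the Relb ratio at 2 h of H2O2 was (-0.70). The shares of all genes with the block are not given here. Deviations of same-numbered libraries correlated at r of 0.017 to 0.11 in heat RNA, -0.1 to 0.107 in H2O2 and KCl RNA and -0.376 to 0.411 in footprints. Footprint depth and 2 libraries a group limit what footprints and ratios can show.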
